A study of Mus musculus with 12 samples.

Results

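The cytosolic ribosomal protein genes were followed in cultured mouse peritoneal macrophages, with and without the matrix protein SPARC. Members were the rows typed as protein coding in the deposited count table whose symbol begins with Rpl or Rps and a number, together with Rpsa and Rplp0 to Rplp2 and without the Rps6k kinases. The choice used names and no measured value, and it gave 103 of 47729 rows. They were 43 proteins of the large subunit, 31 of the small subunit and 3 P proteins of the stalk, which together make 77 core genes, with 10 paralogs or partner genes and 16 rows whose symbol carries the suffix -ps for a copy. Of the 103, 94 passed the filter on low counts, among them all 77 core genes, 8 of 10 paralogs or partners and 9 of 16 copies. Fau, whose product carries a ribosomal protein fused to a ubiquitin-like protein, and Gnb2l1, which encodes the small subunit protein RACK1, fall outside the naming rule.

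All cells came from C57BL/6 mice, whose age the labels used here do not give, and the libraries were made from polyA RNA. Cells were washed out of the peritoneal cavity, 3000000 were seeded per well, and those attached after 2 h were kept as macrophages. The 12 libraries formed 4 groups of 3: IL4c with SPARC, IL4c untreated, TG with SPARC and TG untreated. IL4c mice had received 2 injections of 5 ug IL-4 mixed with 25 ug of antibody to IL-4, a complex that prolongs the cytokine's action, and were lavaged 2 days after the last. TG mice had received 3% thioglycollate, an irritant that draws in monocytes, once, 4 days before lavage. SPARC wells held SPARC at 20 ug/ml for 24 h, and untreated wells, with no control protein named in the labels, served as their reference. Whether each replicate came from its own mice is not in the labels. The p-values therefore rest on the spread among these samples, which may be technical.

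The ribosome translates mRNA in 2 subunits, each an RNA scaffold dressed with proteins that are made in near equal numbers and that are degraded when left unassembled. Their mRNAs are among the most abundant in a cell. Most begin with a C and a run of pyrimidines, the 5′ terminal oligopyrimidine (TOP) motif, through which mTOR and the binding protein LARP1 set how strongly they are translated, a step that mRNA levels do not show. In human monocytic cells one of the proteins, RPL13A, also leaves the ribosome when phosphorylated and silences a set of inflammatory mRNAs.

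The start of a member's mRNA is shown for 5 genes to set a TOP start beside starts without one. Rps6 encodes a small subunit protein that S6 kinase phosphorylates, Rps15a and Rpl24 encode proteins of the small and large subunit, and Rpl10a and the paralog Rpl7l1 are described with the comparisons. Each window holds 15 bases before and 15 from the start that RefSeq annotates on GRCm38.p6, read 5′ to 3′ on the gene's strand, and capitals mark the unbroken run of C and T that begins at the first transcribed base.
Rps6, chr4:86857353-86857382, minus strand: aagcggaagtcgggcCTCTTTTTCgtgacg
Rps15a, chr7:118116133-118116162, minus strand: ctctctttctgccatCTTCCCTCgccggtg
Rpl24, chr16:55966260-55966289, plus strand: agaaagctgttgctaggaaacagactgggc
Rpl10a, first of its annotated starts, chr17:28328456-28328485, plus strand: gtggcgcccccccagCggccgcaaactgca
Rpl7l1, chr17:46782642-46782671, minus strand: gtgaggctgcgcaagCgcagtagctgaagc
The annotated starts of Rps6 and Rps15a open with runs of 9 and 8 pyrimidines, and those of Rpl24, Rpl10a and Rpl7l1 do not. Of the 77 core genes, 57 had an entry in the set of RefSeq starts used here, with 67 starts in all. A C followed by 4 bases that are C or T, read on the gene's strand from the first transcribed base, stood at 13 of the 67 starts (19.4%), against 823 of 32851 starts of all genes (2.51%) and 0 of 75 starts of mitochondrial ribosomal proteins. The motif lay anywhere in the 15 bases that begin 5 bases before the start in 43.3% of core starts, 22.7% of mitochondrial ribosomal protein starts and 18.3% of all starts. An annotated start can lie some bases from the one used in these cells, and the match describes letters and not a regulated site.

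Depth was 31501941 to 42288785 estimated counts per library. The 9 macrophage markers found by symbol all passed the filter, whereas Itgam, also on the list, was not found. Their summed level ranged from 10667 to 34448 CPM (counts scaled to a common library size with TMM factors). Within TG, both libraries with number 1 differed from the rest. The 15 B cell markers summed to 1953 CPM in TG SPARC replicate 1 and 2548 CPM in TG untreated replicate 1, against 84.9 to 429 CPM in the 10 remaining libraries. Proliferation markers summed to 162 and 131 CPM in those TG libraries, against 29.9 to 44.1 CPM elsewhere in TG. T cell markers summed to 45.1 and 38.0 CPM there, against at most 8.44 CPM in any of the 10 remaining libraries. None of the B cell markers was at 0 in every library. In IL4c, both libraries with number 3 had more of the proliferation markers, at 209 CPM with SPARC and 225 CPM without it, against 66.4 to 89.5 CPM elsewhere in IL4c. Counts of members are given with and without each of these pairs, whose part in the results was not tested beyond that. In these bulk libraries, fewer cells of a type and less RNA per cell cannot be told apart.

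Together the 103 rows took 1.81% to 2.67% of all counts. The share was 2.34%, 2.18% and 2.16% in IL4c SPARC replicates 1 to 3, against 2.08%, 2.03% and 2.20% in IL4c untreated replicates. It was 2.14%, 1.82% and 1.81% in TG SPARC replicates, against 2.67%, 1.92% and 1.89% in TG untreated replicates. Within each injection the SPARC and untreated libraries overlapped, and the highest library of all was TG untreated replicate 1. The 3 IL4c SPARC libraries all lay above the 3 TG SPARC libraries, narrowly, at 2.16% against 2.14% for the closest ones. As a share of nuclear protein-coding counts they overlapped (exact permutation p = 0.3). On that measure TG SPARC replicate 1, at 2.226%, lay above IL4c SPARC replicate 3, at 2.218%.

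The mean share was 2.23% ± 0.101 with SPARC and 2.10% ± 0.0893 without it in IL4c cells, and 1.92% ± 0.190 with SPARC and 2.16% ± 0.441 without it in TG cells (SD, n = 3 each). The difference was 0.12 percentage points in IL4c cells (p = 0.3, two-sided exact permutation test) and −0.24 points in TG cells (p = 0.5, same exact test). Between the injections, IL4c minus TG was −0.06 points in untreated wells (exact permutation p = 1.0) and 0.31 points in SPARC wells (exact permutation p = 0.1). The smallest p that 3 against 3 libraries allow is 0.1, so none of these comparisons could pass, and over the 4 of them the lowest adjusted p was 0.4. Without TG untreated replicate 1 the TG difference was 0.01 points and the untreated IL4c minus TG difference 0.20 points. Taken as a share of summed FPKM (counts scaled by transcript length and depth, the authors' second table), the IL4c SPARC difference changed sign, to −0.07 points. On that measure the TG libraries did not overlap: the share was 5.60%, 5.27% and 5.22% with SPARC, against 7.63%, 5.90% and 5.84% without it, a difference of −1.09 points (exact permutation p = 0.1, adjusted p = 0.2 over the 4 comparisons).

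**Figure D1:**
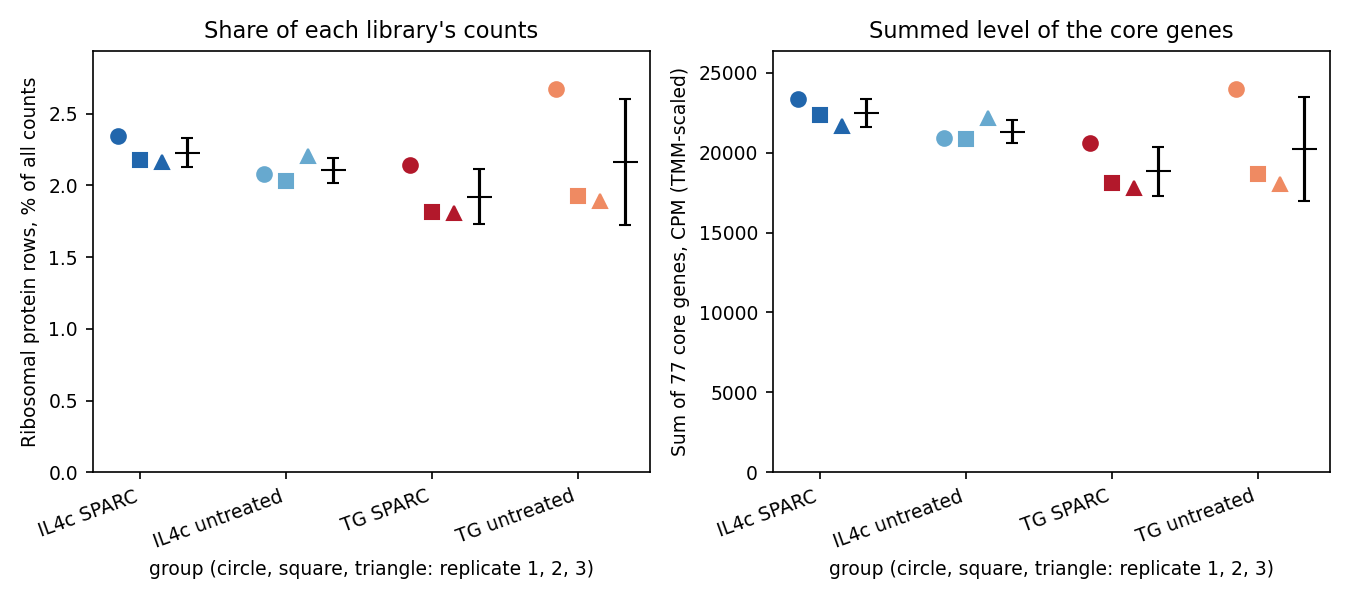
Left, the share of each library's counts taken by the 103 ribosomal protein rows, in percent; right, the summed TMM-scaled CPM of the 77 core genes. Symbols are single libraries by replicate number, and bars give mean ± SD of 3; TG untreated replicate 1 lies highest in both panels, at 2.67% and 23989.8 CPM.

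Summed over the 77 core genes, the level was 23387, 22370.1 and 21689.5 CPM in IL4c SPARC replicates 1 to 3 and 20926, 20869 and 22147 CPM in IL4c untreated replicates. It was 20589, 18084 and 17819 CPM in TG SPARC replicates and 23989.8, 18689 and 18032 CPM in TG untreated replicates. For 66 of 77 core genes the highest of the 6 TG libraries was TG untreated replicate 1. For 37 of 77 it was the highest of all 12, while IL4c SPARC replicate 1 was highest for 21. The same count was not made over all genes, so it does not separate this set from a shift of whole libraries or of their scaling. The coefficient of variation within a group had a median over the core genes of 4.47% in IL4c SPARC, 5.89% in IL4c untreated, 8.66% in TG SPARC and 16.8% in TG untreated wells.

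Matched by replicate number, SPARC wells had a higher level than untreated wells for 64, 59 and 34 of 77 core genes in IL4c replicates 1, 2 and 3, with median log2 differences of 0.20, 0.12 and −0.01. In TG replicates 1, 2 and 3, 9, 30 and 37 of 77 were higher with SPARC, with medians of −0.20, −0.03 and −0.01. IL4c pair 3 and TG pairs 2 and 3 thus had medians near 0, and the TG pair numbered 1 had the most negative median. Scaled by total counts, 4, 22 and 25 of 77 were higher with SPARC in TG replicates 1, 2 and 3. The TG medians were then −0.31, −0.07 and −0.06, and the IL4c counts were 65, 59 and 34. Matched counts were not made over all genes either, so they carry the same limit.

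Per length, core genes ranged 5.43-fold, from a mean of 168 FPKM for Rpl37 to 912 FPKM for Rplp1, around a median of 412 FPKM over the 12 libraries. Rplp1 and Rplp2 (489 FPKM) encode the acidic stalk proteins that recruit elongation factors, and Rplp0 (559 FPKM) encodes the protein that anchors them. Next to Rplp1, Rpl41 (858), Rpl10 (848), Rps27 (823) and Rps29 (801 FPKM) had the highest length-scaled levels. Rank correlations of group means across the 77 genes lay between 0.89 and 0.97 for the 6 pairs of groups, where each mean rests on 3 libraries and the gene lengths are shared.

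**Figure D2:**
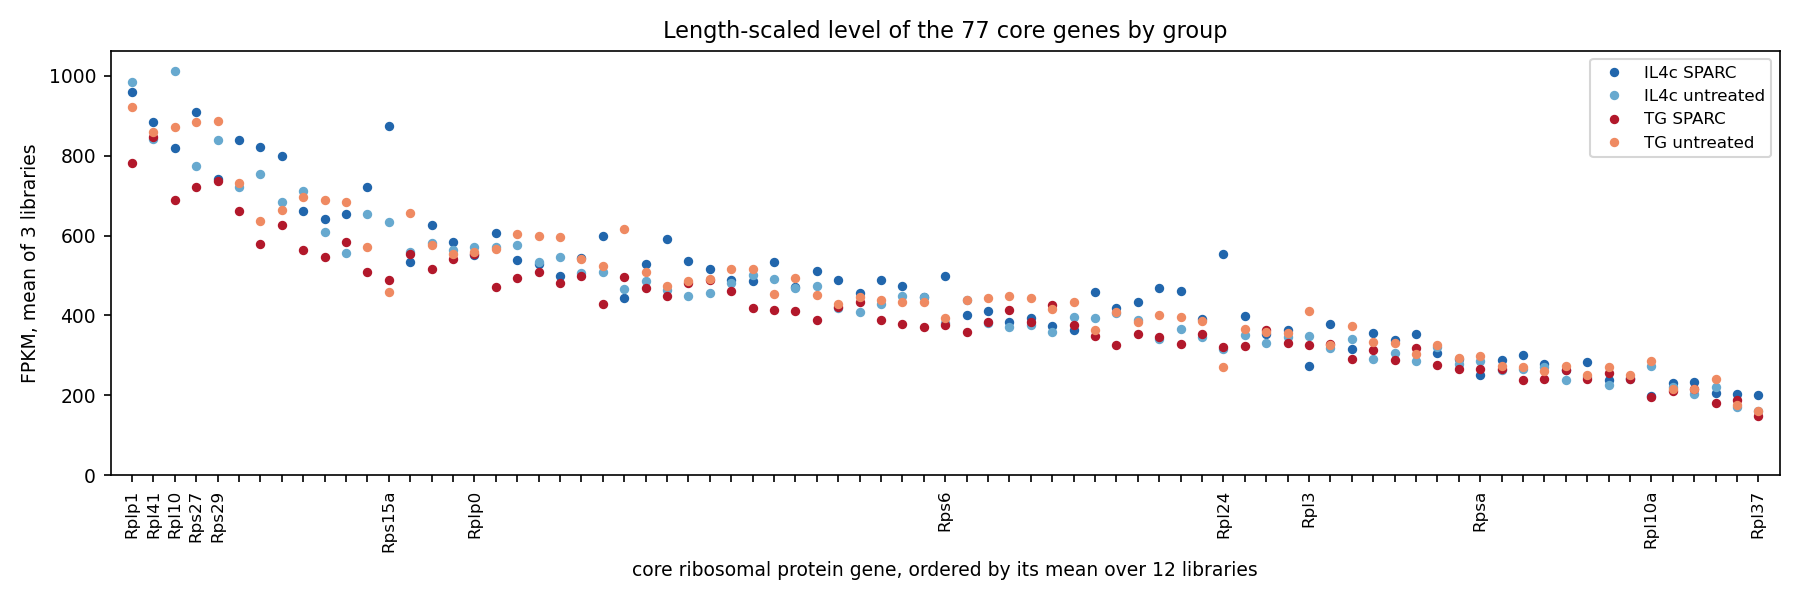
Mean FPKM over 3 libraries for each of the 77 core genes, in order of the mean over 12 libraries, with 1 colour per group and some of the genes labelled. Rps15a and Rpl24 stand out above their neighbours in IL4c SPARC cells, and rank correlations between groups lie between 0.89 and 0.97.

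Paralogs and copies lay below all but 1 of the core genes. Rpl36al averaged 173 FPKM, just above Rpl37, Rps27l 109, Rpl22l1 64.8, the retrocopy Rps27rt 37.2, Rpl7l1 28.4 and Rps19bp1, whose product binds RPS19 and activates the deacetylase SIRT1, 13.4 FPKM. Rpl6l and Rpl39l averaged 1.36 and 0.917 FPKM. The muscle form Rpl3l had 1 to 17 counts per library and was not tested. The testis form Rpl10l had 0 counts in all 12 libraries, where a count of 0 allows up to 3 counts, or 0.0709 to 0.0952 CPM depending on the library.

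Among the 16 copies, Rpl10-ps3 (40.7 FPKM), Rpl23a-ps3 (33.5) and Rpl9-ps6 (24.4) had the highest means. Rps26-ps1, Rpl27-ps3, Rps12-ps3, Rps2-ps6, Rps18-ps3 and Rpl13a-ps1 lay below them, down to 0.564 FPKM. The copies Rpl36-ps3, Rpl7a-ps5, Rpl13-ps3, Rpl7a-ps3, Rpl9-ps1 and Rpl21-ps4 had at most 11 counts in any library, and Rpl36-ps4 had 0 throughout. The table types all 16 as protein coding, whereas the GENCODE M21 annotation of GRCm38 types 5 of them so. Rpl6l, grouped here with the paralogs or partners by its symbol, is a processed pseudogene in that annotation. Levels of the copies, of Rps27rt and of their parent genes are uncertain, because RSEM divides reads among near-identical transcripts. A further 254 rows named as ribosomal pseudogenes, of other types in the table, held 0.0410% to 0.0594% of counts per library.

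SPARC against untreated wells in IL4c cells asks what the protein does to macrophages of mice given IL-4. In edgeR's quasi-likelihood test, adjusted by Benjamini-Hochberg over 15232 genes, 4 of 94 tested members were higher with SPARC and 1 was lower. Over all genes 15.1% were called higher and 12.7% lower; the members' counts lie below those shares, a contrast that was not tested. The median log2 fold change was 0.10 over the members and 0.00 over all genes, and 58 of 77 core genes had a positive value. Core values ran from −0.48 to 0.81.

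Rpl24, a large subunit protein at the bridge between the subunits, had 344, 329 and 323 CPM in IL4c SPARC wells, against 184, 175 and 207 CPM in IL4c untreated wells. All SPARC libraries lay above all untreated ones, with a log2 fold change of 0.81 ± 0.14 (SE, adjusted p = 0.00265). Leaving out any 1 of the 12 libraries kept that call, with adjusted p between 0.000185 and 0.0131.

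Rps20, a small subunit protein that can bind MDM2, had 293, 307 and 269 CPM in IL4c SPARC wells, against 196, 198 and 223 CPM in IL4c untreated wells. The groups did not overlap, and the change was 0.50 ± 0.15 (SE, adjusted p = 0.0304). The call was lost without IL4c SPARC replicate 1 or 2 or IL4c untreated replicate 1 or 2, with adjusted p from 0.072 to 0.094.

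Rpl7l1, a paralog of Rpl7 linked to assembly of the large subunit, had 81.2, 80.3 and 85.7 CPM with SPARC, against 63.7, 60.2 and 66.0 CPM in untreated IL4c wells. Its groups were apart, with a change of 0.38 ± 0.08 (SE, adjusted p = 0.00490) that kept its call without any 1 library. Scaled by the members' own summed counts, which shows a member relative to the rest, its change was 0.30 and not called (adjusted p = 0.103).

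Rps27l, a paralog of Rps27 and a target of p53, had 45.2, 44.6 and 46.4 CPM in IL4c SPARC wells, against 32.3, 32.1 and 43.0 CPM in IL4c untreated wells. The untreated replicate 3 came close to the SPARC wells, and the change was 0.34 ± 0.11 (SE, adjusted p = 0.0468). The call was lost in 8 of 12 fits that each left out 1 library, namely TG SPARC replicate 3, TG untreated replicates 2 and 3, IL4c untreated replicates 1 and 2 and each IL4c SPARC replicate, with adjusted p of up to 0.153.

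The only member called lower was Rpl10a, which encodes the large subunit protein uL1 of the L1 stalk. It had 170.2, 134 and 159.5 CPM with SPARC, against 198, 205 and 243 CPM in untreated IL4c wells. The groups did not overlap, and the change was −0.48 ± 0.14 (SE, adjusted p = 0.0269). The call was lost without IL4c SPARC replicate 2 or 3 or IL4c untreated replicate 3, with adjusted p from 0.0553 to 0.097.

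Several named members missed the threshold in IL4c cells. Rps6 had 427, 412 and 394 CPM with SPARC, against 307, 304 and 333 CPM without it, so the groups were apart, at 0.39 ± 0.15 (SE, adjusted p = 0.0831). Rps15a had 355, 307 and 325 CPM with SPARC, against 249, 229 and 278 CPM without it, at 0.38 ± 0.13 (SE, adjusted p = 0.0524).

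Rpl10, next to the peptidyl transferase centre, had 677, 592 and 522 CPM with SPARC, against 795, 770.0 and 678 CPM without it. Its groups were narrowly apart, at −0.32 ± 0.12 (SE, adjusted p = 0.0795). Rpl13a (0.22), Rpl11 (0.22) and Rplp2 (0.26) had log2 fold changes of similar size, and Rplp0 (−0.04), Rps19 (0.03), Rps27a (0.00) and Rpl5 (0.08) lay near 0. RPL5 and RPL11 bind MDM2 with 5S RNA, and loss of 1 copy of RPS19 causes Diamond-Blackfan anaemia. Rpsa, which encodes the small subunit protein also known as the laminin receptor, had −0.19 ± 0.16 (SE, adjusted p = 0.421), with all SPARC libraries below the untreated ones.

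With the replicate number within an injection as a block, 18 of 94 members were higher and 3 lower with SPARC in IL4c cells, where 22.8% and 22.4% of all genes were called higher and lower. The block added, among others, Rps15a (adjusted p = 0.00856), Rps6 (0.014), Rpl11 (0.0332) and Rpl13a (0.0442) to the higher members, and Rpl3 (0.0142) and Rpl10 (0.0143) to the lower ones. When both TG libraries numbered 1, which enter here only through the estimate of spread, were left out, 25 members were higher (21.9% of all genes) and 3 lower (20.5% of all genes). Leaving out both IL4c libraries numbered 3 gave 6 higher (10.3% of all genes) and 0 lower (7.68% of all genes), with a members' median of 0.17.

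Other measures moved with SPARC in IL4c cells. Mitochondrially encoded genes took 0.624%, 0.522% and 1.09% of counts with SPARC, against 1.62%, 1.76% and 2.42% without it. In TG cells the mitochondrial share was 1.61%, 1.18% and 1.08% with SPARC, against 2.38%, 1.42% and 1.49% without it, which overlap. In IL4c cells the 9 macrophage markers summed to 10667 to 16757 CPM with SPARC, against 18784 to 26609 CPM without it, with 1 called higher and 3 lower. Lyz2 was the largest of the 9 in every IL4c library, at 4444 to 9577 CPM with SPARC, against 11679 to 20372 CPM without it. Fcgr1, by contrast, had a median of 108 CPM with SPARC, against 6.92 CPM without it.

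The 7 mesothelial and fibroblast markers summed to 60.8 to 112 CPM with SPARC in IL4c cells, against 5.81 to 14.8 CPM without it. With SPARC, Dcn held nearly all of that sum, at 58.9, 108 and 97.1 CPM, against 5.29, 4.51 and 10.8 CPM of Dcn without it. The mesothelial marker Msln had at most 20 counts in any library. The 7 neutrophil markers summed to 48.2, 71.4 and 195 CPM with SPARC in IL4c cells, against 35.3, 40.6 and 29.7 CPM without it, with 2 of 3 tested called higher. In TG cells they summed to 288, 103 and 91.1 CPM with SPARC, against 52.4, 45.1 and 40.3 CPM without it, with 1 called higher. S100a8 and Mmp8 made up most of these sums, while S100a9 and Ngp had at most 3 counts in any library. The part of these markers in the members' changes was not tested.

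**Figure D3:**
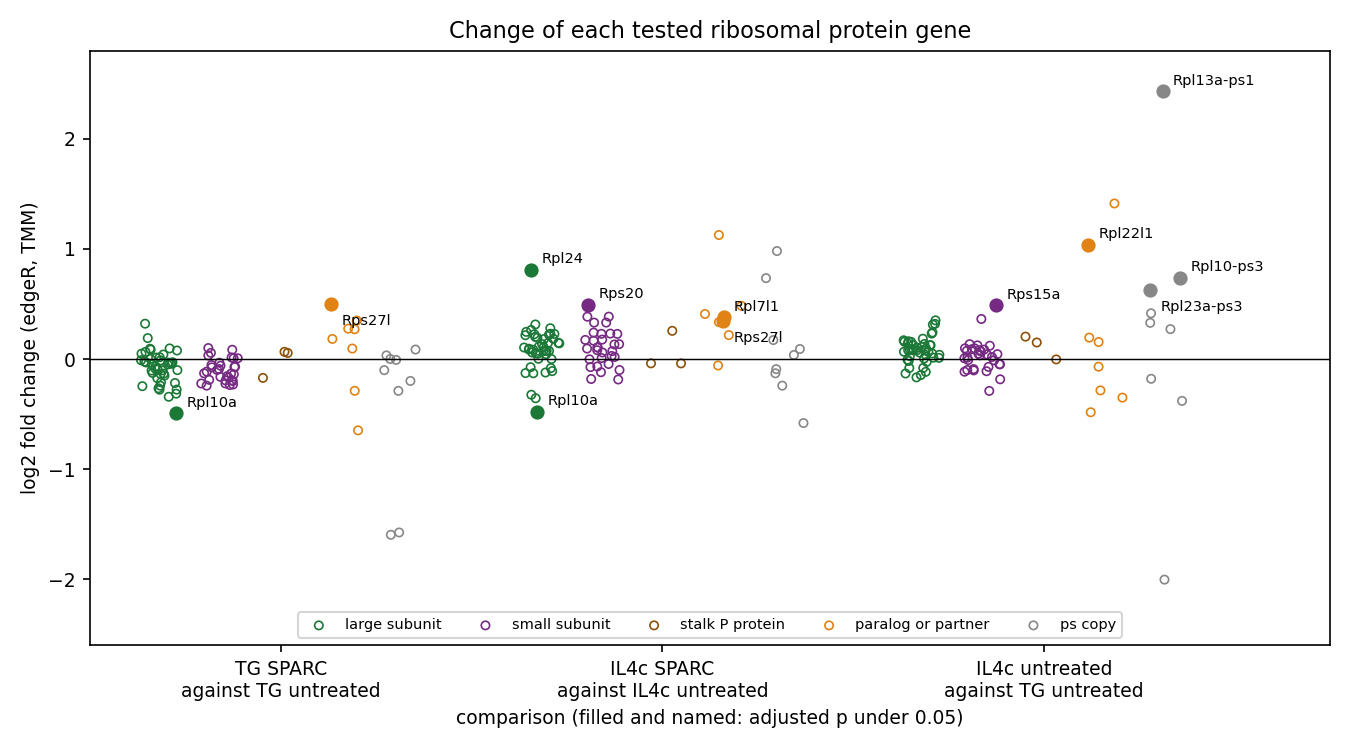
Log2 fold change of each of the 94 tested members in 3 comparisons, by class, with filled and named points called at an adjusted p under 0.05. Core genes run from −0.49 to 0.32, from −0.48 to 0.81 and from −0.29 to 0.49 in the columns from left to right, and the called members are 2, 5 and 5.

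SPARC against untreated wells in TG cells asks the same of recruited inflammatory macrophages. Of the 94 tested members 1 was higher and 1 lower with SPARC, where 6.73% and 4.52% of all genes were called higher and lower. The median log2 fold change was −0.07 over the members and −0.03 over all genes, and 56 of 77 core genes had a negative value, 67 of 77 with upper-quartile scaling and 69 of 77 with total counts. Scaling by the members' own sum, which centres the members by construction, gave 34 of 77. Both called members, Rps27l and Rpl10a, were also called in IL4c cells, in the same directions; the SPARC comparisons share no library but do share the estimate of spread.

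Rps27l had 67.5, 55.7 and 62.2 CPM in TG SPARC wells, against 44.4, 44.0 and 42.5 CPM in TG untreated wells. The groups were well apart, with a change of 0.50 ± 0.11 (SE, adjusted p = 0.0209). The call was lost without TG SPARC replicate 3, TG untreated replicate 2 or TG untreated replicate 3. The adjusted p was then 0.0514 to 0.0684. It was 0.0521 when the TG pair numbered 1 was left out, at a change of 0.47.

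Rpl10a had 179, 135 and 135 CPM in TG SPARC wells, against 214, 212 and 203 CPM in TG untreated wells. The groups did not overlap, and the change was −0.49 ± 0.14 (SE, adjusted p = 0.0472). The call was kept without TG SPARC replicate 1, IL4c SPARC replicate 2 or IL4c untreated replicate 3, and was lost without any 1 of the other 9 libraries (adjusted p of up to 0.139). With the TG pair numbered 1 left out the change was −0.60 (adjusted p = 0.0151).

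Rpl24, the called member with the largest change in IL4c cells, had 204, 181 and 171 CPM in TG SPARC wells, against 185, 131 and 129 CPM in TG untreated wells. The groups overlapped through TG untreated replicate 1, and the change was 0.32 ± 0.14 (SE, adjusted p = 0.177). It was called relative to the members' own sum (0.43, adjusted p = 0.0194), with the block (0.34, adjusted p = 0.0304) and with the TG pair numbered 1 left out (0.46, adjusted p = 0.0123).

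Rpl22l1, a paralog of the RNA-binding protein RPL22, had 20.0, 8.73 and 8.03 CPM in TG SPARC wells, against 22.5, 16.5 and 18.5 CPM in TG untreated wells. TG SPARC replicate 1 lay among the untreated libraries, and the change was −0.65 ± 0.31 (SE, adjusted p = 0.211). With the TG pair numbered 1 left out it was −1.04 (adjusted p = 0.0029).

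Rpl12, at the base of the stalk, had 215, 176 and 176 CPM in TG SPARC wells, against 259, 219 and 226 CPM in TG untreated wells. The groups were narrowly apart, at −0.31 ± 0.12 (SE, adjusted p = 0.117), as were those of Rpl10 at −0.28 ± 0.12 (SE, adjusted p = 0.187). Rplp0 (0.07), Rplp2 (0.06), Rps6 (0.01), Rps19 (0.01), Rpl11 (0.06) and Rpl13a (0.01) had log2 fold changes near 0, and Rplp1 (−0.17), Rps27a (−0.19), Rpl5 (−0.24) and Rpsa (−0.10) lay below it, none of them called. Rpl27 (0.19) and Rpl36al (0.27), a paralog of Rpl36a whose level is uncertain for that reason, lay above it and were not called.

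With the replicate block, 2 members were higher and 7 lower with SPARC in TG cells, where 14.3% and 13.1% of all genes were called. The lower ones included Rpl12 (adjusted p = 0.0133), Rpl10a (0.0148), Rpl22l1 (0.0237), Rps15 (0.0299), Rpl31 (0.0372) and Rpl10 (0.0435). Leaving out the TG pair numbered 1 gave 2 members higher (8.74% of all genes) and 2 lower (5.92% of all genes), with a members' median of 0.00. Without TG untreated replicate 1 alone it was 0.04, with 3 members higher (8.36% of all genes) and 0 lower (5.28% of all genes), so the sign of the TMM-scaled median rested on that library.

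**Figure D4:**
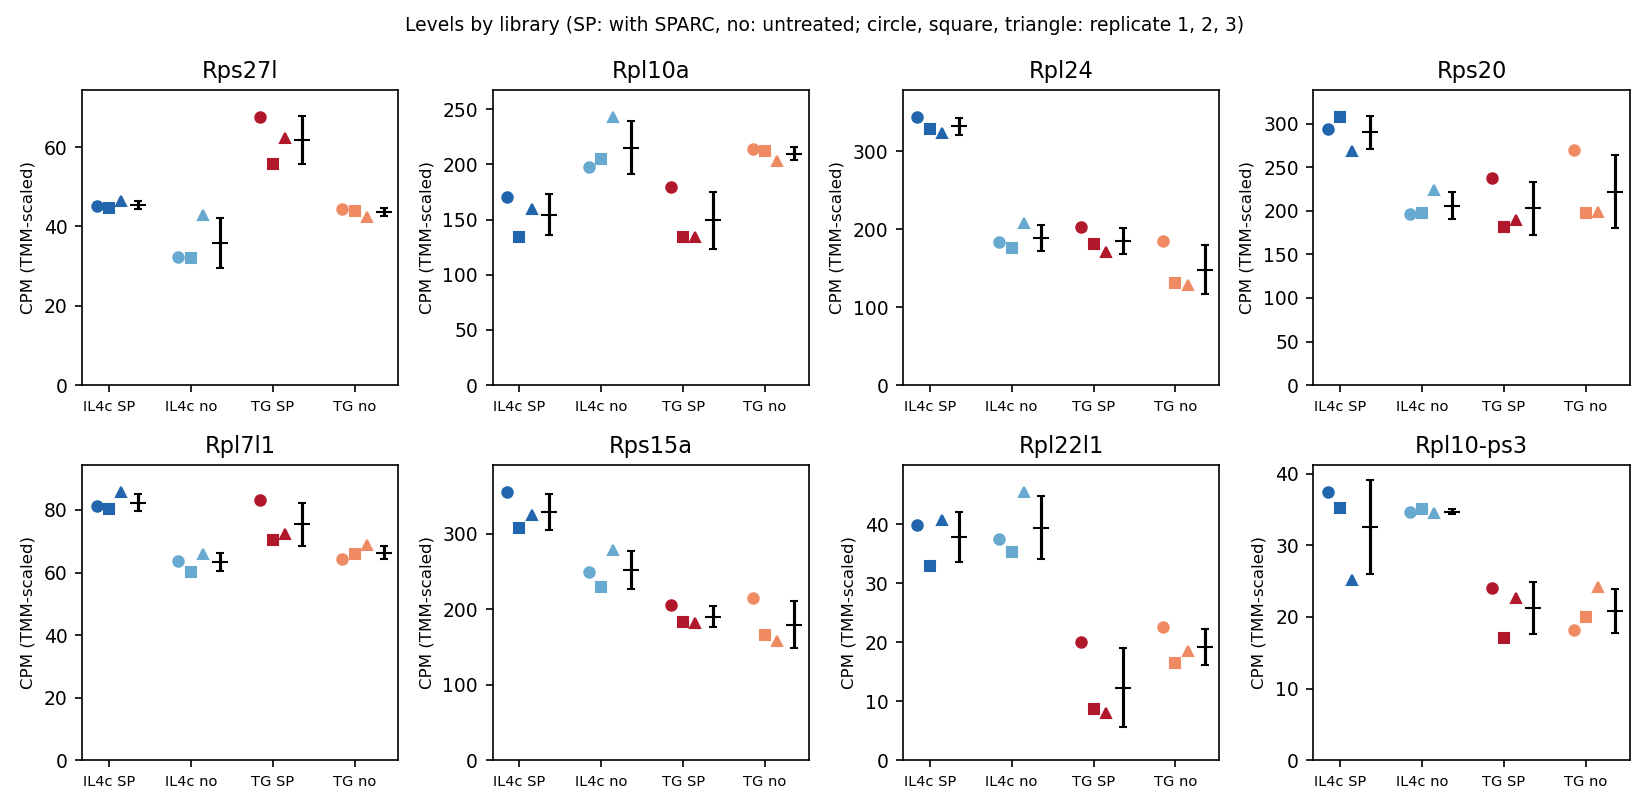
TMM-scaled CPM of 8 members in each of the 12 libraries, with mean ± SD of 3 beside each group. Rps27l is higher and Rpl10a lower with SPARC in both injections, Rpl24 is highest in IL4c SPARC cells, and Rps15a, Rpl22l1 and Rpl10-ps3 are higher in IL4c than in TG untreated cells.

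IL4c against TG untreated wells compares the injections, which differ in the cells they yield as well as in the signal given. These libraries also serve as the references of both SPARC comparisons, so the 3 sets of fold changes are not independent. Of the 94 tested members 5 were higher in IL4c cells and 0 lower, where 10.2% and 10.8% of all genes were called. At an unadjusted p under 0.05 there were 13 members in both directions together, against 36.2% of all genes. DESeq2 called 10 members higher and 2 lower, and 14.3% and 13.4% of all genes. The median log2 fold change was 0.07 over the members and −0.05 over all genes, and it was −0.05 over the members with total-count scaling.

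Rps15a, a small subunit protein, had 249, 229 and 278 CPM in IL4c untreated wells, against 215, 165 and 158 CPM in TG untreated wells. The groups did not overlap, and the change was 0.49 ± 0.13 (SE, adjusted p = 0.0265). Without IL4c untreated replicate 1 or 3 or TG untreated replicate 2 or 3 the change was not called, with adjusted p from 0.0702 to 0.0973, and under total-count scaling (0.37, adjusted p = 0.0978). With the TG pair numbered 1 left out it was 0.65 (adjusted p = 0.0013).

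Rpl22l1 had 37.5, 35.3 and 45.4 CPM in IL4c untreated wells, against 22.5, 16.5 and 18.5 CPM in TG untreated wells. The lowest IL4c library was well above the highest TG library, with a change of 1.04 ± 0.31 (SE, adjusted p = 0.0378). Without IL4c SPARC replicate 1 or 2, any IL4c untreated replicate or TG untreated replicate 2 or 3 it was not called, with adjusted p of up to 0.123. Its parent Rpl22 had a change of 0.10 and was not called.

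The other 3 called members were copies. Rpl10-ps3 had 34.6, 35.0 and 34.5 CPM in IL4c untreated wells, against 18.2, 19.9 and 24.2 CPM in TG untreated wells, a change of 0.74 ± 0.17 (SE, adjusted p = 0.0154). Leaving out TG untreated replicate 2 ended that call (adjusted p = 0.0581), as did scaling by the members' sum (adjusted p = 0.0571). The parent Rpl10 had 795, 770.0 and 678 CPM in IL4c untreated wells, against 657, 593 and 548 CPM in TG untreated wells, also apart, at 0.32 ± 0.12 (SE, adjusted p = 0.0944).

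Rpl23a-ps3 had 21.0, 18.6 and 16.9 CPM in IL4c untreated wells, against 10.8, 12.2 and 13.6 CPM in TG untreated wells, a change of 0.62 ± 0.18 (SE, adjusted p = 0.0343). The parent Rpl23a had −0.12. That call was lost without any TG untreated replicate, IL4c SPARC replicate 1 or IL4c untreated replicate 1 or 2 (adjusted p of up to 0.116). Rpl13a-ps1 had 18, 16 and 18 counts in IL4c untreated libraries, against 4, 2 and 5 counts in TG untreated libraries, and its fitted change of 2.43 ± 0.42 (SE, adjusted p = 0.00514) rests on those few counts.

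The remaining paralogs and tested copies were called in none of the comparisons. Rps19bp1 had log2 fold changes of 0.41 ± 0.19 with SPARC in IL4c cells, with all SPARC libraries above the untreated ones, 0.10 ± 0.19 with SPARC in TG cells and −0.48 ± 0.19 for IL4c against TG untreated cells (SE, adjusted p = 0.139, 0.808 and 0.0961). Rpl36al had 0.22, 0.27 and 0.19 in the same order, and Rpl9-ps6 had 0.09, −0.01 and 0.27. The low members Rpl6l, Rpl39l, Rps2-ps6 and Rps18-ps3 had standard errors of 0.79 to 1.20, so that a change of −1.57 ± 0.79 for Rps2-ps6 with SPARC in TG cells was not called (SE, adjusted p = 0.238).

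When the TG pair numbered 1 was left out, the same comparison called 39 of 94 members higher and 1 lower, where 19.3% and 19.5% of all genes were called. The members' median was then 0.22, against 0.01 over all genes, and 71 of 77 core genes had a positive value. Rps19 (0.34, adjusted p = 0.0024), Rpl13a (0.43, adjusted p = 0.00237), Rpl5 (0.31, adjusted p = 0.0156) and Rplp0 (0.31, adjusted p = 0.0158) were among those called, and Rps19bp1 (−0.69, adjusted p = 0.00197) was the lower one. Without TG untreated replicate 1 alone the counts were 29 higher and 1 lower, where 15.1% and 14.4% of all genes were called. Without TG untreated replicate 2 there was 1 higher and 0 lower (5.19% and 4.94% of all genes), and without TG untreated replicate 3 there were 2 higher and 0 lower (5.96% and 5.32% of all genes). Leaving out IL4c untreated replicate 1, 2 or 3 gave 2, 3 and 3 higher and 0, 0 and 1 lower. The share of all genes is not printed for those fits, so these counts are not by themselves a result about the members. Leaving out the IL4c pair numbered 3 gave 2 higher and 1 lower (9.53% and 7.56% of all genes).

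The difference of the SPARC responses, IL4c minus TG, was tested as an interaction. edgeR called 0 of 94 members in either direction and 0% of all genes, with 6 members at an unadjusted p under 0.05, against 10.6% of all genes. DESeq2 and limma-voom also called 0 members, where DESeq2 called 1.12% of all genes higher and 1.27% lower. The median difference was 0.17 on the log2 scale over the members and 0.02 over all genes, and 70 of 77 core genes had a positive value. Leaving out the TG pair numbered 1 gave a median of 0.10 with 58 of 77 positive. Rps20 had a difference of 0.62 ± 0.21 (SE, adjusted p = 0.315) and Rpl24 0.49 ± 0.20 (SE, adjusted p = 0.417).

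With the replicate block 2 members passed in the interaction, both with a more positive response in IL4c cells, where 1.5% of all genes were called higher and 1.6% lower. They were Rps20 (0.62, adjusted p = 0.0442) and Rps27rt (0.81, adjusted p = 0.0432), whose parent Rps27 had 0.45 without a call. Leaving out the TG pair numbered 1 also gave 2 (2.37% of all genes were higher and 3.2% lower), Rps20 (0.57, adjusted p = 0.0357) and Rpl22l1 (0.98, adjusted p = 0.0243).

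How libraries were scaled moved the direction of the set as a whole. In TG cells the members' median for SPARC was −0.07 with TMM or RLE factors, −0.13 with upper-quartile scaling and −0.15 with total counts, and the median of all genes moved with it, to −0.10 under either of the other scalings. Between the injections, TMM gave 0.07 and total counts gave −0.05 while all genes moved to −0.16, so the sign flipped. The members' median lay 0.13 above that of all genes with TMM and 0.12 above it with total counts. In IL4c cells the SPARC median was 0.10 with TMM, 0.11 with total counts and 0.04 with upper-quartile scaling. TMM factors computed without the 103 rows gave −0.07, 0.11 and 0.07 in the TG, IL4c and injection comparisons.

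**Figure D5:**
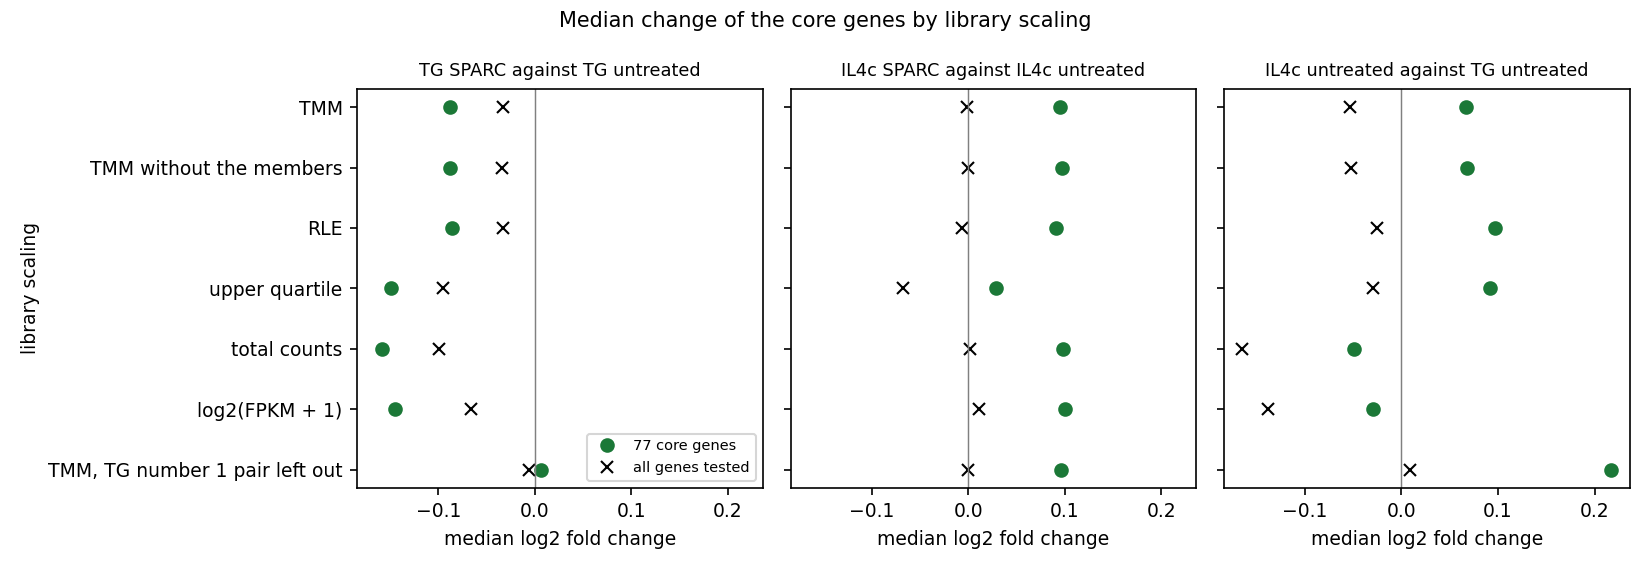
Median log2 fold change of the 77 core genes (circles) and of all genes tested (crosses) in 3 comparisons, under 6 scalings and without the TG libraries numbered 1. Under total counts and FPKM the core median in the right panel lies below 0, and without the TG pair it moves to 0.22.

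Scaled by their own summed counts, 2 members were higher and 0 lower with SPARC in TG cells (6.72% and 1.63% of all genes), 3 higher and 1 lower in IL4c cells (9.39% and 12.2%), and 3 higher and 1 lower between the injections (7.23% and 9.43%). In that scale Rpl24 was higher with SPARC in both injections, at 0.74 in IL4c cells (adjusted p = 0.000517) and 0.43 in TG cells (adjusted p = 0.0194). Rps15 was lower in IL4c untreated cells (−0.37, adjusted p = 0.0256), with 208, 202 and 202 CPM there, against 287, 235 and 226 CPM in TG untreated wells. By subunit, TMM-scaled medians over the large and the small subunit were 0.09 and 0.10 for SPARC in IL4c cells, −0.05 and −0.11 for SPARC in TG cells, and 0.08 and 0.03 between the injections.

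Genes around the ribosome were read from lists drawn up by function. Of 23 tested translation factors and other TOP mRNAs, 0 were higher and 3 lower with SPARC in IL4c cells, beside 15.1% and 12.7% of all genes. The count of lower ones thus lies near the share of all genes. These were Eif2s3x (−0.31, adjusted p = 0.00737), Eif4b (−0.60, adjusted p = 0.0159) and Eif3k (−0.22, adjusted p = 0.0255), all initiation factors. In TG cells edgeR called 0, with 3 at an unadjusted p under 0.05, beside 26.6% of all genes. The smallest adjusted p there was that of Tpt1 (−0.59, adjusted p = 0.0658). The block gave 3 higher and 5 lower in IL4c cells, beside 22.8% and 22.4% of all genes. It gave 1 higher and 3 lower in TG cells, beside 14.3% and 13.1% of all genes. In IL4c against TG untreated cells 4 were higher and 0 lower, beside 10.2% and 10.8% of all genes: Naca (0.35), Npm1 (0.43), Eif4b (0.58) and Pabpc1 (0.64). That count was 15 higher and 0 lower when the TG pair numbered 1 was left out, where 19.3% and 19.5% of all genes were called. Fau and Gnb2l1 were called in none of the 4 comparisons.

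The 38 genes of ribosome assembly and RNA polymerase I, which makes ribosomal RNA, had a median of −0.42 in IL4c against TG untreated cells. Of them 12 were lower and 0 higher, beside 10.8% and 10.2% of all genes. Examples were Tsr1 (−0.81, adjusted p = 0.00966), Nop2 (−0.41, adjusted p = 0.0146), Wdr43 (−0.45, adjusted p = 0.0147) and Noc2l (−0.53, adjusted p = 0.0203), whose products or yeast counterparts act in the maturation of ribosomal RNA or the export of preribosomes. With the TG pair left out 22 were lower and 2 higher, where 19.5% and 19.3% of all genes were called. With SPARC, Ubtf, a factor that binds ribosomal DNA for polymerase I, was lower in IL4c cells (−0.33, adjusted p = 0.0342) and in TG cells (−0.42, adjusted p = 0.0263). Polr1c, a subunit shared by polymerases I and III, was higher with SPARC in IL4c cells (0.64, adjusted p = 0.00409). In IL4c cells 1 was thus higher and 1 lower, against 6 and 2 with the block, and in TG cells 1 was lower, against 2 with it. Over all genes 15.1% were called higher and 12.7% lower in IL4c cells, and 4.52% lower in TG cells. With the block these shares were 22.8%, 22.4% and 13.1%.

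Among 22 tested genes that control ribosomal protein synthesis, 7 were higher and 3 lower with SPARC in IL4c cells, beside 15.1% and 12.7% of all genes. In TG cells 4 were higher and 1 lower, beside 6.73% and 4.52% of all genes. The block gave 10 and 6 in IL4c cells, beside 22.8% and 22.4% of all genes. It gave 7 and 4 in TG cells, beside 14.3% and 13.1%. Eif2ak2, the interferon-induced kinase PKR, was higher in IL4c cells (1.49, adjusted p = 7.36e-05) and in TG cells (1.40, adjusted p = 0.000328). Larp1 was higher in both (0.55, adjusted p = 0.0058 in IL4c cells; 0.61, adjusted p = 0.00979 in TG cells). Myc, a transcription factor for ribosome genes, was lower in both (−0.68, adjusted p = 0.0117 in IL4c cells; −0.88, adjusted p = 0.00914 in TG cells). Mtor was called in neither. Mdm2 (0.83, adjusted p = 0.00511) and Trp53 (0.47, adjusted p = 0.0143), whose products meet ribosomal proteins in the p53 pathway, were higher with SPARC in IL4c cells. In TG cells edgeR called neither Mdm2 (0.38, adjusted p = 0.172) nor Trp53 (−0.03, adjusted p = 0.898). The difference of the responses was not called for either (adjusted p = 0.552 and 0.305 by edgeR).

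The 77 mitochondrial ribosomal protein genes, which serve the separate ribosome of mitochondria, had 26 members higher and 1 lower with SPARC in IL4c cells, with a median of 0.25, beside 15.1% and 12.7% of all genes. In TG cells 7 were higher and 0 lower, with a median of 0.19, beside 6.73% and 4.52% of all genes. Mrpl45 was higher in IL4c cells (0.85, adjusted p = 0.000401) and in TG cells (0.63, adjusted p = 0.0058). The block gave 40 higher and 1 lower in IL4c cells and 19 higher and 0 lower in TG cells, beside 22.8% and 22.4% of all genes in IL4c cells and 14.3% and 13.1% in TG cells. The 77 core cytosolic genes had 2 higher and 1 lower in IL4c cells and 0 higher and 1 lower in TG cells. The difference between these lists was not tested.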

How the data were processed

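The authors deposited a table of expected counts, unscaled, and a table of FPKM that they had scaled by gene length and depth, each with 1 column per library. The submitters' processing notes name STAR and RSEM, besides CASAVA and bcl2fastq 1.8.4. The build, the annotation and the strand setting were not given in the sources used, so levels of overlapping genes are uncertain. Of the expected counts 7.97% were not whole, and they were rounded. edgeR 4.0.16 (R 4.3.3) filtered genes with filterByExpr at a minimum count of 10, which left 15232, scaled them by TMM and fitted all 12 libraries in 4 groups with robust quasi-likelihood and 8 residual degrees of freedom. A gene was called at a Benjamini-Hochberg adjusted p under 0.05 over all genes tested, and SE is the fold change divided by the root of F. Shares were compared with exact permutation tests (scipy 1.17.1). Alternatives were other scalings, DESeq2 1.42.0, limma 3.58.1 (voom, and log2 of FPKM plus 1 or 0.1 at a minimum of 1 FPKM), other count filters, the compared groups alone, a replicate block and libraries left out; the related lists without the TG pair were added after seeing the data. The code was checked on simulated counts.

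Same-numbered libraries of an injection deviated together from their group means (correlations of 0.505 to 0.753 in all 6 pairs, against −0.716 to 0.612 for other numbers of the same injection), so numbers were read as pairing within an injection, a reading of the data that the labels do not state. Across injections same-numbered libraries correlated at −0.242 to 0.262, so the injection comparison was not blocked. No libraries of a group were copies (the lowest chi-square divided by its degrees of freedom was 9.80).

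Members, gene lists and tests were chosen with earlier results of these data known, and are no independent evidence. The naming rule took the P proteins, Rpsa, Rps6, Rps19, Rps27a, Rpl5, Rpl11, Rpl13a, paralogs and copies, the 5 highest and lowest in FPKM, up to 6 called members per direction with at least 10 CPM, up to 4 with the smallest p relative to the members' sum, and up to 4 per related list. The copies' parents Rpl23a and Rpl22, then Rpl37, Rpl31, Larp1, Mtor, and Myc, Mdm2 and Trp53 where the list rule did not take them, were named after their values were seen. Symbols come from the table, and sequences from a set of RefSeq starts on GRCm38.p6 that held 66 of the 103 members. All 103 identifiers were found in GENCODE M21 without their version. Some members are not reported here by name.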

Additional observations from a re-analysis of the deposited data

Results flagged for a closer look

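In the fit with the replicate block, 2 of 94 tested members passed the test of the difference between the SPARC responses. Over all genes that fit called 1.5% higher and 1.6% lower. The members' count lies near those shares and is not by itself a result about the members. For Rps20 the IL4c response exceeded the TG response by 0.62 on the log2 scale (adjusted p = 0.0442 by edgeR), against an adjusted p of 0.315 without the block. For Rps27rt it did so by 0.81 (adjusted p = 0.0432), against 0.77 and an adjusted p of 0.572 without it. Rps27rt had 16.7, 17.4 and 11.7 CPM in IL4c SPARC wells and 11.2, 12.6 and 8.95 CPM in IL4c untreated wells, and 11.9, 5.57 and 6.61 CPM in TG SPARC wells and 12.4, 7.82 and 9.24 CPM in TG untreated wells. In every replicate number it was higher with SPARC in IL4c cells and lower with SPARC in TG cells. Its reads are shared with Rps27, so its level is uncertain.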

How the results depend on the processing

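Small counts of called members moved with most choices, and where no cause is given, it was not tested. The share of all genes called moved as well. For SPARC in IL4c cells the share called higher was 15.1% without the block, 22.8% with it and 21.9% without the TG pair. Between the injections it was 10.2%, and 19.3% without the TG pair. A changed count of members is thus not by itself a result about them, also where that share is not printed. For SPARC in TG cells (1 higher, 1 lower) the members' summed counts as scale gave 2 and 0, log2 FPKM 0 higher with either pseudocount, FPKM without a filter 0 and 0, upper-quartile scaling 2 lower, DESeq2 3 lower, no low-count filter or the compared groups alone 0 lower, the replicate block 2 and 7, and the fit without both TG libraries numbered 1 gave 2 and 2; leaving out 1 library gave 0 to 3 higher, 0 to 2 lower and a median of −0.14 to 0.04. For SPARC in IL4c cells (4 higher, 1 lower) upper-quartile scaling gave 2 and 2, total counts 2 higher, the 3 FPKM fits 2 higher (0 lower without a filter), DESeq2 10 and 2, the groups alone 13 higher, the replicate block 18 and 3, the fit without the TG pair 25 and 3, and the fit without both IL4c libraries numbered 3 gave 0 lower; leaving out 1 library gave 2 to 14 higher and 0 to 1 lower. The median of 0.10 became 0.04 with upper-quartile scaling, 0.02 with the members' sum and 0.17 without the IL4c pair, and lay between 0.07 and 0.14 with 1 library left out.

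Between the injections (5 higher, 0 lower) total counts gave 2 and 3, the members' sum 3 and 1, DESeq2 10 and 2, log2 FPKM 2 and 2 with either pseudocount, FPKM without a filter 2 higher, the fit without the TG pair 39 and 1 and that without the IL4c pair 2 and 1; leaving out 1 library gave 1 to 29 higher, 0 to 1 lower and a median of 0.01 to 0.22, which was 0.22 without the TG pair. For the difference of the responses the block and the fit without the TG pair each gave 2 higher, against 0 in all other settings run, and the median of 0.17 became −0.01 with the members' sum, as that scale centres the members, and 0.06 to 0.23 with 1 library left out. In share of counts, the IL4c SPARC difference became −0.07 points in FPKM, and with 1 library left out the differences ran from 0.06 to 0.17 points for SPARC in IL4c cells, −0.38 to 0.01 in TG cells, −0.19 to 0.20 between untreated groups and 0.25 to 0.42 between SPARC groups. No called member changed direction in any setting run. Rpl24 in IL4c cells and Rpl13a-ps1 between the injections kept their calls in every setting that gave them a value, and Rpl7l1 lost its call only in the members' sum scale.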
